A study of Saccharomyces cerevisiae with 12 samples.

Results

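The 226 splice forms described here were read in wild-type, set1Δ or set2Δ yeast and had no read in any library that carried the prp43-1 allele. They were chosen by their read counts: rows of the deposited table of splice forms with 0 reads in all 6 prp43-1 libraries and 1 or more reads in at least 2 of the 6 libraries with intact Prp43, with forms of SCR1 (the signal recognition particle RNA) left out. The table lists 6195 forms, of which 5935 lie outside SCR1 and 1878 of these were read in at least 2 libraries with intact Prp43. The 226 are 12% of those 1878. They are called absent forms below. Their absence from prp43-1 is the rule that chose them and is given without a test.

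The study sequenced rRNA-depleted total RNA of 6 haploid Saccharomyces cerevisiae genotypes at 25 °C and 37 °C, once each, which gives 12 libraries without replicates. All are labelled BY4741, MATa his3Δ1 leu2Δ0 met15Δ0 ura3Δ0. The groups are this strain as wild type, set1Δ, set2Δ, prp43-1, prp43-1 set1Δ and prp43-1 set2Δ. The 37 °C libraries are marked by temperature alone, and the labelled growth protocol gives rich medium (YPD) at 25 °C for every sample, so the time at 37 °C is not known. The series title names splicing across the yeast genome.

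An intron is cut out by the spliceosome, which recognises a 5′ splice site (usually GTATGT in yeast DNA letters), a branch point within TACTAAC and a 3′ splice site that ends in AG. Prp43 is an RNA helicase that takes the spliceosome apart, both after a finished reaction and when a substrate stalls on the way, and it also acts in ribosome assembly. Discard of stalled or weak substrates is one of the steps by which splice site choice is kept accurate. Set1 methylates lysine 4 and Set2 methylates lysine 36 of histone H3 along transcribed genes.

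The letters of the most-read absent forms show why they were divided by their ends. In the lines that follow, read from the R64 reference on the strand of the form and 5′ to 3′, capitals mark the first 6 skipped bases, a TACTAAC where there is one in the stretch, and the last 3 skipped bases. The first 6 letters of a line for a 5′ site or end, the last 6 of a line for a 3′ end, and both in a whole form are the retained flanks. The first lines show one 5′ site of MAF1, one 5′ site of PUS7 and the different 3′ ends each was joined to.

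MAF1 shared 5′ site: atgaaaGTATGTtatcactc

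MAF1 622-nt form, 3′ end: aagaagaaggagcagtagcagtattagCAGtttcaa

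MAF1 382-nt form, 3′ end: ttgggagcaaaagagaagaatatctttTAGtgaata

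PUS7 shared 5′ site: aagaagGTAAGGtcattcac

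PUS7 340-nt form, 3′ end: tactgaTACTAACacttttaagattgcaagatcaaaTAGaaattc

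PUS7 323-nt form, 3′ end: tactgaTACTAACacttttAAGattgca

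SLP1 1553-nt form, 5′ end: ttgtggGTAAGTataatcgg

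SLP1 1553-nt form, 3′ end: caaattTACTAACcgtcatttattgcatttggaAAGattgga

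Both PUS7 forms hold the same TACTAAC, and their 3′ ends lie 10 and 27 nt after its last A. Its use as a branch point was not measured. CDC43 and NVJ2 are shown whole because each gap lies in one coding exon of a gene with no annotated intron, so all the letters of an intron are found inside protein-coding sequence.

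CDC43 165-nt form: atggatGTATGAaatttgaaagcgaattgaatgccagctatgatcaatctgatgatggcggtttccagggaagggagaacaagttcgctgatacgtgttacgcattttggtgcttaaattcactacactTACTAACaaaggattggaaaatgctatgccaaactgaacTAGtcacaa

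NVJ2 97-nt form: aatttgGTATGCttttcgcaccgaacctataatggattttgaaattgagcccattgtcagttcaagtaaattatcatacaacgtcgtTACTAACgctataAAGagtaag

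The next pair shows an absent form whose 3′ end is the annotated one and whose 5′ end starts with GC in place of GT, inside the annotated intron of RPS11A.

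RPS11A 210-nt form, 5′ end: ttcttaGCATGTttattgtt

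RPS11A 210-nt form, 3′ end: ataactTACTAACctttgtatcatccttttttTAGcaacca

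The 12 libraries held between 37392 and 86845 reads on listed forms outside SCR1. The 6 libraries with intact Prp43 had 297755 such reads and the 6 prp43-1 libraries 334692. A sum over listed forms is not the depth of a library, which is unknown here. The genotype labels could hardly be checked from the altered genes, since forms of SET1, SET2 and PRP43 had 4 reads in all. With the auxotrophic markers these genes had 7 listed forms. Of these, 4 were read in at least 2 prp43-1 libraries and 0 in at least 2 libraries with intact Prp43. Marker reads were not used to check the labels. Mating type could be checked, and it went against some labels: forms of the alpha-specific genes had 61 and 16 reads in set1Δ (25 °C and 37 °C), 38 and 2 in set2Δ and 99 and 15 in prp43-1 set2Δ, and 0 in the other 6 libraries, although every strain is labelled MATa. Forms of a-specific genes had 1 and 3 reads in wild type, 1 and 2 in prp43-1, 1 and 2 in prp43-1 set1Δ and 0 elsewhere. The main counts are therefore also given for the wild-type and prp43-1 libraries alone, in which no alpha-specific read was found.

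Most absent forms rest on few reads. Their total was 927 reads, 0.311% of the reads outside SCR1 in the 6 libraries with intact Prp43. The median form had 3 reads, 76 forms had the minimum of 2 reads in 2 libraries, 63 had at least 5 and 10 had at least 10. A count of 0 among 334692 reads allows up to 8.96 RPM (reads per 1000000 reads outside SCR1) for a form, taking 3 counts as the limit and covering counting error only. The 76 forms with 2 reads stood at 6.72 RPM in the libraries with intact Prp43, under that limit, so their absence was not detectable at this depth. The other 150 stood at 10.1 RPM or more, and 49 of them had 3 reads. The limit takes no account of the counting error of these reads, nor of the choice of the forms by their zeros. Standing above it therefore does not establish absence, least of all for forms just above it. The 226 forms lay at 226 distinct positions, and 184 host genes held all but the 1 form with no host. Just outside the rule, 174 forms had 1 prp43-1 read, led by forms of YPL216W (118 nt, 33 reads with intact Prp43), IWR1 (89 nt, 19 reads) and PDC1 (183 nt, 17 reads). A further 1035 forms had no prp43-1 read and were seen in 1 library with intact Prp43, with 10 reads at most.

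**Figure D1:**
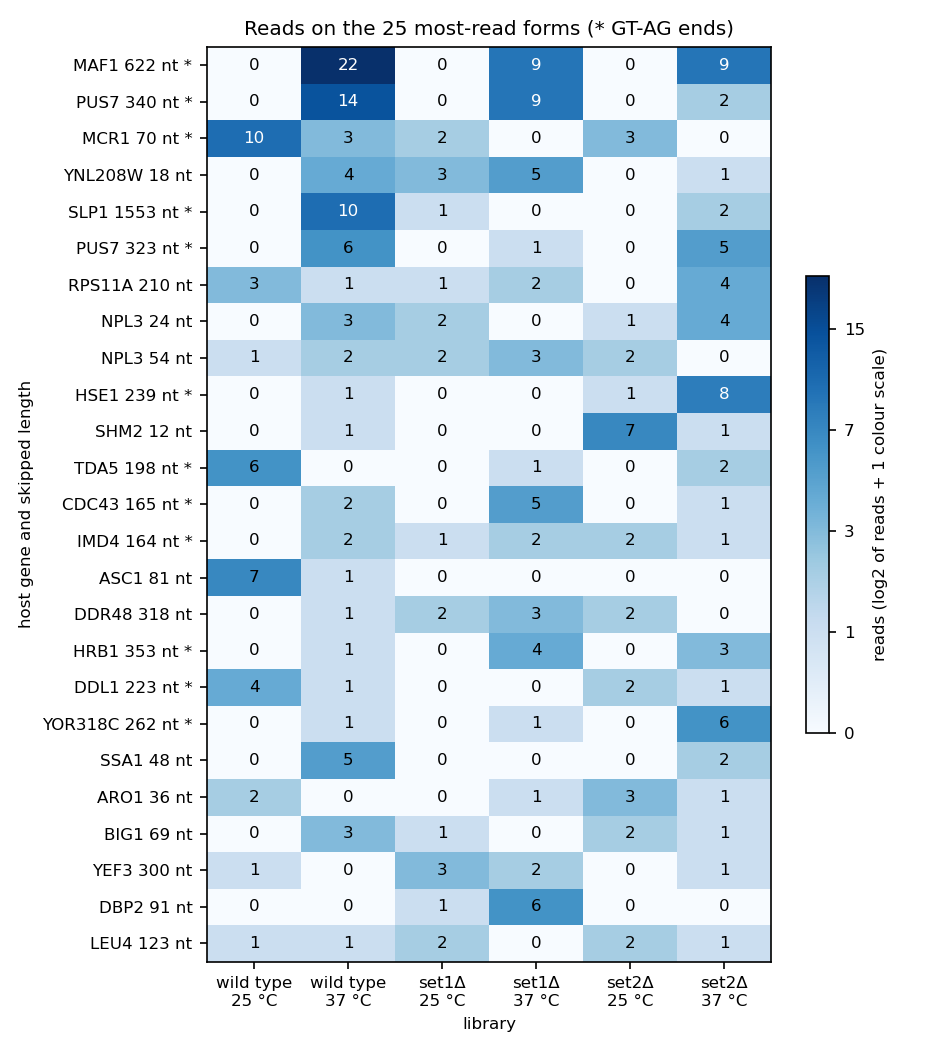
Reads on the 25 absent forms with the most reads (rows, host gene and skipped length, asterisk for GT-AG ends) in the 6 libraries with intact Prp43 (columns), with the colour on a log2 scale and the count printed in each cell. MAF1 622 nt and PUS7 340 nt have reads in all 3 libraries at 37 °C and 0 in all 3 at 25 °C, while MCR1 70 nt has 10, 2 and 3 reads at 25 °C.

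MAF1 held the most-read absent form. Maf1 represses RNA polymerase III in response to stress, and its gene has 1 annotated intron, of 80 nt, that begins after the first 6 coding bases. The 622-nt form (chromosome IV, 457476 to 458097, minus strand, sacCer3) starts at the annotated 5′ site and ends 542 nt past the annotated 3′ end, within the second exon. It had 0 reads at 25 °C and 22 at 37 °C in wild type, 0 and 9 in set1Δ, and 0 and 9 in set2Δ. The 37 °C and 25 °C libraries did not overlap, and the 40 reads were at least 15.2-fold higher at 37 °C against a floor of 3 counts over the 3 libraries at 25 °C, with the totals of both temperatures scaled by edgeR's TMM factors. A second absent form of MAF1, of 382 nt, shares the 5′ site and ends 302 nt past the annotated 3′ end. Its 6 reads were 4 in wild type and 2 in set2Δ, all at 37 °C.

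The other listed MAF1 forms had 7 reads with intact Prp43, all at 37 °C, and 2 in prp43-1. One of them, of 613 nt, joins the same 5′ site to a 3′ end 9 nt before that of the 622-nt form, and it had 0 reads with intact Prp43 and 1 read in prp43-1 set1Δ at 37 °C. The annotated MAF1 junction is not in the table, so how much MAF1 RNA each library held was not analysed here. In bulk RNA, less host transcript and less use of the splice site cannot be told apart.

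PUS7 held 2 of the 6 most-read forms. Pus7 is a pseudouridine synthase that modifies tRNA, mRNA and the U2 RNA of the spliceosome, and its gene has no annotated intron. Both forms lie in the coding sequence (chromosome XV, ending at 792015 on the minus strand and beginning at 791676 and 791693) and start after 226 coding bases. The 340-nt form had 0 reads at 25 °C and 14 at 37 °C in wild type, 0 and 9 in set1Δ, and 0 and 2 in set2Δ. For the 323-nt form the counts were 0 and 6, 0 and 1, and 0 and 5. The libraries at the 2 temperatures did not overlap for either form, and the reads were at least 9.47-fold and at least 4.55-fold higher at 37 °C, against the same floor.

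Another PUS7 form, of 349 nt, starts at the same 5′ site, holds the same TACTAAC and ends 9 nt after the 340-nt form. It is named because its values stood apart once they were seen. It had 4 and 0 reads in wild type, 0 and 2 in set1Δ, and 1 and 1 in set2Δ at 25 °C and 37 °C, and 1 read in prp43-1 set1Δ at 25 °C. Of the reads that joined this 5′ site in strains with intact Prp43, the 5 at 25 °C were all on the 349-nt form, and at 37 °C 3 were on it, 25 on the 340-nt form, 12 on the 323-nt form and 1 on a 331-nt form.

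**Figure D2:**
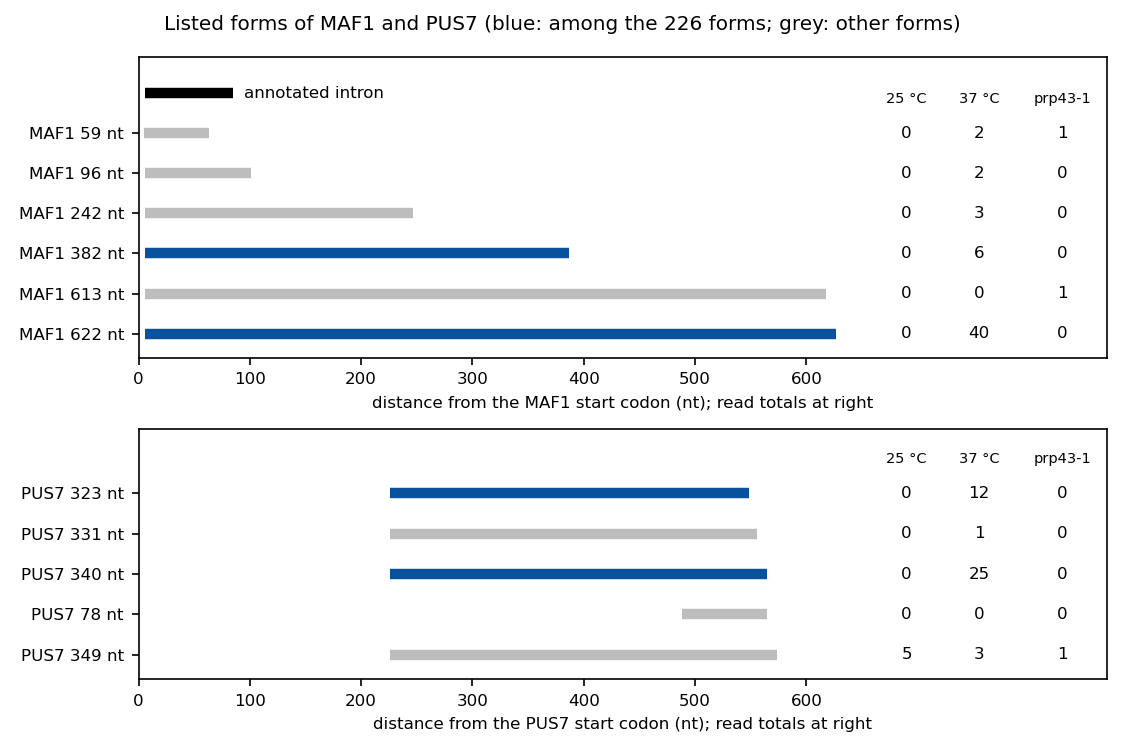
Listed forms of MAF1 (top) and PUS7 (bottom) drawn to scale by distance from the start codon in nt, with the absent forms in blue, other listed forms in grey and the annotated MAF1 intron in black. At right are the reads in the 3 libraries with intact Prp43 at each temperature and in the 6 prp43-1 libraries, such as 0, 40 and 0 for MAF1 622 nt and 5, 3 and 1 for PUS7 349 nt.

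The temperature contrast was not used by the rule, and it was tested form by form in the 6 libraries with intact Prp43. In the edgeR quasi-likelihood fit with the filter on low counts, 437 forms were tested and 10 (2.29%) passed an adjusted p of 0.05, 7 of them higher at 37 °C (1.6%) and 3 lower (0.686%), but 0 absent forms had enough reads to enter. Without that filter 3789 forms were tested, of which 2 rose (0.0528%) and 2 fell, and MAF1 622 nt was 1 of the 2 that rose. Its log2 fold change was 6.86 ± 1.39 (SE), with an edgeR adjusted p of 0.00082, where the median of all forms was 0.36. The fitted value depends on the prior count, since the 25 °C libraries were at 0. PUS7 340 nt had a log2 fold change of 6.12 ± 1.6 (SE) with an edgeR adjusted p of 0.0716, and PUS7 323 nt had an adjusted p of 0.819, so neither passed.

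The call on MAF1 was kept in unfiltered edgeR fits with RLE size factors (adjusted p = 0.000659), with column totals (0.00392), without the SCR1 forms (0.00257) and without the set1Δ libraries (0.00179), at log2 fold changes of 6.67 to 7.13. It was lost in unfiltered fits without the wild-type libraries (log2 fold change 6.18, edgeR adjusted p = 0.608) and without the set2Δ libraries (7.08, adjusted p = 0.182), and with DESeq2 (6.16, adjusted p = 0.207). With the filter on and SCR1 forms left out, MAF1 622 nt was the 1 absent form tested and had an adjusted p of 0.097. The set1Δ and set2Δ contrasts called no form (0%) of the 437 with edgeR or DESeq2, and 18 and 8 had an unadjusted edgeR p under 0.05. The filter left no absent form to test there. Without it, edgeR tested all 226 for each deletion and called 0, none with an unadjusted p under 0.05, and DESeq2 called 0 as well. Over the whole table that edgeR fit called 1 of 3789 forms for set1Δ (0.0264%) and 0 (0%) for set2Δ.

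Other absent forms with intron-like letters inside coding exons included those of SLP1, CDC43 and NVJ2. These are examples, since 12 of the 32 GT-AG absent forms within coding exons held a TACTAAC. SLP1, a membrane protein gene, had a 1553-nt form that skips most of its reading frame (chromosome XV, 624768 to 626320, plus strand), with 0 and 10 reads in wild type at 25 °C and 37 °C, 1 and 0 in set1Δ, and 0 and 2 in set2Δ. Most of its reads came from 1 library, and the groups overlapped. A 1564-nt form joins the same 5′ site to another AG and had 3 reads, all at 37 °C, and no other form of SLP1 is listed.

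CDC43, which encodes a subunit of a prenyltransferase that attaches lipids to proteins, had a 165-nt form (chromosome VII, 214853 to 215017, plus strand) with 0 and 2 reads, 0 and 5, and 0 and 1 in wild type, set1Δ and set2Δ. NVJ2, a lipid-binding protein of the nucleus-vacuole junction, had a 97-nt form (chromosome XVI, 717050 to 717146, minus strand) with 0 and 4, 0 and 2, and 0 and 1. Both were read in every library with intact Prp43 at 37 °C and in none at 25 °C. A 262-nt form in YOR318C had 0 and 1, 0 and 1, and 0 and 6, with most reads in set2Δ at 37 °C.

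For 4 absent forms the GT-AG letters lay on the strand opposite to the host, and 2 of these were among the 25 most-read. HSE1, a gene for sorting of membrane proteins to the vacuole, had a 239-nt form with 0 and 1, 0 and 0, and 1 and 8 reads. DDL1, a phospholipase gene, had a 223-nt form with 4 and 1, 0 and 0, and 2 and 1. Whether the libraries keep strand is not given in the sources used here, so these letters cannot be assigned to a transcript.

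MCR1, which encodes a mitochondrial NADH-cytochrome b5 reductase, ran the other way. Its 70-nt form lies before the start codon and had 10 and 3 reads in wild type at 25 °C and 37 °C, 2 and 0 in set1Δ, and 3 and 0 in set2Δ. Reads were fewer at 37 °C in each strain, but the 37 °C value of wild type was above the 25 °C value of set1Δ and equal to that of set2Δ, so the groups overlapped.

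At annotated introns 39 absent forms kept 1 annotated end and moved the other, while ECM33 417 nt and RPS11A 112 nt spanned exon and intron and kept neither. The annotated 5′ site was used by 25 forms, and the other end lay downstream of the annotated 3′ site in 17 and upstream in 8, from 244 nt upstream (IMD4) to 542 nt downstream (MAF1). It lay within 30 nt in 12. The 353-nt form of HRB1, a gene for an mRNA-binding protein with RNA-recognition domains, ended 11 nt past the annotated site at an AAG and had 0 and 1, 0 and 4, and 0 and 3 reads at 25 °C and 37 °C in wild type, set1Δ and set2Δ. All 3 libraries with intact Prp43 at 37 °C held it and none at 25 °C did. The letters of both its ends, and of a TDA5 form that ends 127 nt past the annotated site, were these:

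HRB1 353-nt form, 5′ end: gaaaacGTATGTttcattga

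HRB1 353-nt form, 3′ end: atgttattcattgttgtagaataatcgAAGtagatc

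TDA5 198-nt form, 5′ end: gagatgGTATGTaaagtaga

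TDA5 198-nt form, 3′ end: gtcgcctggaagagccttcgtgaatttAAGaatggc

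TDA5 198 nt had 6 and 0 reads in wild type, 0 and 1 in set1Δ and 0 and 2 in set2Δ, with the highest count at 25 °C. Forms that kept these 5′ sites and used other 3′ ends often remained in prp43-1. Of the 25 absent forms at an annotated 5′ site, 23 shared it with other listed forms and for 17 those forms had prp43-1 reads. The 164-nt form of IMD4, a homolog of IMP dehydrogenase, had 0 and 2, 1 and 2, and 2 and 1 reads, and BIG1, a gene needed for cell wall glucan, had a 69-nt form with 0 and 3, 1 and 0, and 2 and 1.

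The annotated 3′ site was kept by 14 forms, 12 of them in ribosomal protein genes, and the 5′ end moved. RPS11A 210 nt, the most read, had 3 and 1 reads in wild type, 1 and 2 in set1Δ and 0 and 4 in set2Δ. Its counts at the 2 temperatures overlapped.

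GT-AG ends were found on 67 of the 226 absent forms (29.6%), against 14.2% of all forms outside SCR1. To show what the same rule picks in the opposite direction, it was applied with the sides exchanged: 0 reads in the 6 libraries with intact Prp43 and reads in at least 2 prp43-1 libraries. That mirrored rule found 189 forms, of which 23 (12.2%) had GT-AG ends. Both sets are descriptions, since the rules fix the direction.

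The 2 directions were alike for forms without GT-AG ends. Of those read in at least 2 libraries, 159 of 1623 (9.80%) were absent from prp43-1 and 166 of 1628 (10.2%) from the strains with intact Prp43. Most lay in coding exons. At annotated 5′ sites the shares of forms without GT-AG ends were 4 of 43 (9.30%) and, mirrored, 10 of 42 (23.8%). Within annotated introns they were 3 of 32 (9.38%) and 9 of 38 (23.7%). Among forms with GT-AG ends the shares were 67 of 255 (26.3%) and 23 of 197 (11.7%). Inside coding exons 32 of 88 GT-AG forms (36.4%) were absent from prp43-1 and 6 of 62 (9.68%) in the mirrored direction, while at annotated 5′ sites the shares were 21 of 114 (18.4%) and 14 of 100 (14%). The order was the same among GT-AG forms with 2 reads, at 55.9% and 31.4%, and with 5 or more, at 14.9% and 4.35%.

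In the wild-type and prp43-1 libraries alone, with reads required in both libraries of a side, 23 of 77 GT-AG forms (29.9%) were absent from prp43-1 and 9 of 66 (13.6%) from wild type. For other forms the shares were 100 of 815 (12.3%) and 73 of 687 (10.6%). Leaving out all 6 libraries with alpha-specific reads left 2 libraries against 4. There 10 of 77 GT-AG forms (13%) were absent from the 4 prp43-1 libraries and 35 of 151 (23.2%) from the 2 wild-type libraries. For the other forms the shares were 34 of 815 (4.17%) and 250 of 1321 (18.9%). The order of the directions thus turned for GT-AG forms. This choice changed both the number of libraries on each side and the strains in them. These cannot be told apart here, and the part of either was not tested.

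**Figure D3:**
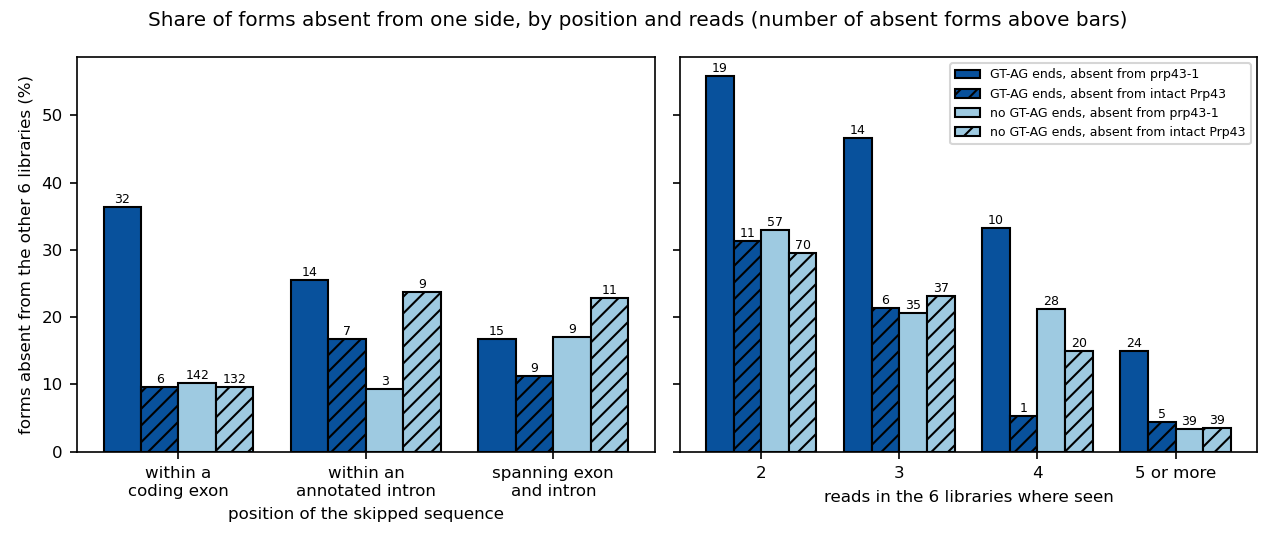
Percent of forms that were absent from the other 6 libraries, among forms read in at least 2 libraries of one side, by position of the skipped sequence (left) and by reads on that side (right). Plain bars are forms absent from prp43-1 and hatched bars the mirrored direction, dark for GT-AG ends and light for other ends, with the number of absent forms above each bar; GT-AG forms within coding exons stand at 36.4% and 9.68%.

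The deposited p-value, whose test is not stated, was under 0.05 for 74 absent forms and 30 mirrored ones. These were 28.2% and 15.4% of the forms under 0.05 read in at least 2 libraries of a side. In coding exons 27 of the 46 forms under 0.05 (58.7%) were absent from prp43-1, against 1 of 17 (5.88%) in the mirrored direction. The directions were closer at annotated 5′ sites (16.6% and 16.4%), within annotated introns (21.1% and 20.0%) and across exon and intron (20.2% and 16.3%). At annotated 3′ sites the shares were 13 of 35 (37.1%) and 7 of 27 (25.9%). Outside the coding sequence they were 6 of 24 (25.0%) and 0 of 14 (0%). The deposited p-value is largely the same division as the ends, since 61 of the 67 absent forms with GT-AG ends were under 0.05.

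The splice letters of the exonic forms were not used by the rule. TACTAAC was searched for on the strand of the form within the skipped sequence. It was present in 12 of the 32 exonic GT-AG absent forms (37.5%), in 6 of the 56 exonic GT-AG forms that did have prp43-1 reads (10.7%) and in 61 of all 369 exonic GT-AG forms (16.5%). The absent ones were longer, with a median of 178 nt against 72.0 nt, and a longer sequence holds any 7 letters more often. The consensus GTATGT began 3 of the 32 (9.38%) and 10 of the 56 (17.9%). Among the 38 absent GT-AG forms with no annotated site at either end, the consensus began 5, and 19 different runs of 6 first bases were found.

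Lengths differed with the ends. GT-AG absent forms skipped a median of 179 nt (quartiles 117 and 348) and the others 54.0 nt (28.5 and 149), and the annotated introns of yeast had a median of 141 nt. Of the 159 without GT-AG ends, 77 were shorter than 50 nt, against 2 of the 67. Over all 226 the median was 89.0 nt, beside 94.0 nt in the mirrored set and 80 nt over all forms outside SCR1. It was 69.0 nt over the 1878 forms read in at least 2 libraries with intact Prp43, which are the closer comparison. Multiples of 3 made up 47.3% of absent forms, 59.9% of those 1878 and 49.4% of all forms outside SCR1. A direct repeat of 4 nt or more at the 2 ends was found in 12.4%, 21.0% and 17.3%.

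**Figure D4:**
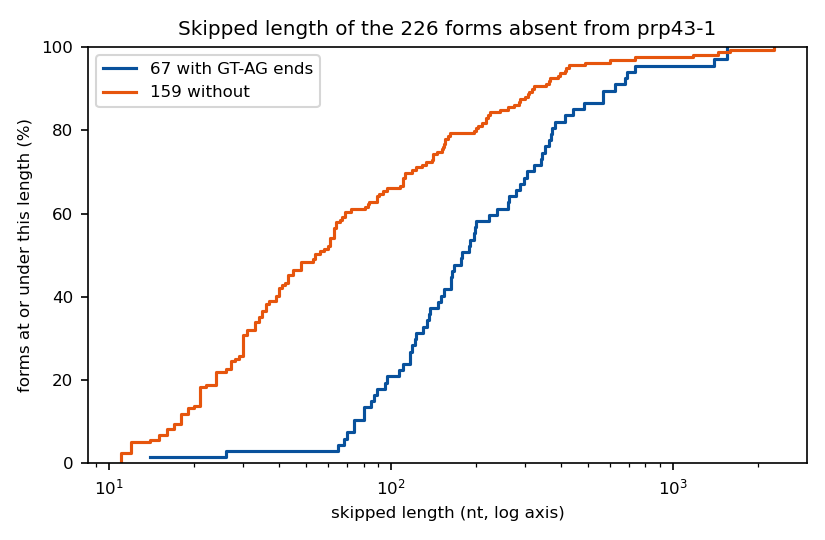
Cumulative percent of absent forms at or under each skipped length in nt on a log axis, for the 67 with GT-AG ends and the 159 without. The curve of the GT-AG forms lies to the right, with a median of 179 nt against 54.0 nt.

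More reads fell on the GT-AG absent forms at 37 °C than at 25 °C in each strain. Their summed level was 853.2 and 2013 RPM in wild type at 25 °C and 37 °C, 741.7 and 1005 in set1Δ and 587.8 and 2022 in set2Δ, log2 ratios of 1.22, 0.42 and 1.75 (mean 1.13 ± 0.67, SD, n = 3 strains; the sums get no test). Absent forms without GT-AG ends gave 0.28, -0.14 and 0.37 (mean 0.17 ± 0.27). GT-AG forms that did have prp43-1 reads gave 0.30, -0.61 and 0.09 (mean -0.07 ± 0.48). Form by form these were also higher at 37 °C more often than not. Of the 188, 124 had more reads at 37 °C and 51 at 25 °C, beside 32 and 24 of the 67 absent ones. Without the 10 most-read absent forms the GT-AG mean was 0.63 ± 0.72 and set1Δ was at -0.06.

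Presence followed the same order. Of the 67 GT-AG absent forms, 26 (38.8%) were seen at 37 °C alone, 11 (16.4%) at 25 °C alone and 30 at both. The prp43-1 libraries held 138692 reads outside SCR1 at 37 °C and 196000 at 25 °C, and those with intact Prp43 held 147430 and 150325, so fewer prp43-1 reads stood behind the 0 at 37 °C; the part of this in the count was not tested. Of the 188 GT-AG forms with prp43-1 reads, 33 (17.6%) were seen at 37 °C alone and 5 at 25 °C alone, though these have more reads each. The number of these 188 seen was 84 and 156 in wild type at 25 °C and 37 °C, 112 and 112 in set1Δ, and 103 and 142 in set2Δ. In the mirrored GT-AG set 3 forms were at 37 °C alone and 3 at 25 °C alone. The number of GT-AG absent forms seen was 17 and 38 in wild type at 25 °C and 37 °C, 20 and 40 in set2Δ, and 25 and 21 in set1Δ, so it was lower at 37 °C in set1Δ. Absent forms of both kinds were 71 and 118, 75 and 98, and 91 and 79.

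Among the libraries with intact Prp43, 13 absent forms were seen in all 3 at 37 °C and in none at 25 °C. GT-AG ends were on 9 of them, which were MAF1 622 nt, both PUS7 forms, CDC43, HRB1, YOR318C and NVJ2, together with NCE101 107 nt (1, 2 and 2 reads at 37 °C in wild type, set1Δ and set2Δ) and RPS0B 369 nt (2, 1 and 1). The remaining 4, in ICT1, CIS3, INO1 and LSB6, had neither GT-AG ends nor more than 6 reads. The pattern was not limited to absent forms. It was met by 9 of the 67 absent forms with GT-AG ends and 4 of the 159 without. Among forms with prp43-1 reads it was met by 11 of 188 with GT-AG ends and 21 of 1464 without.

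**Figure D5:**
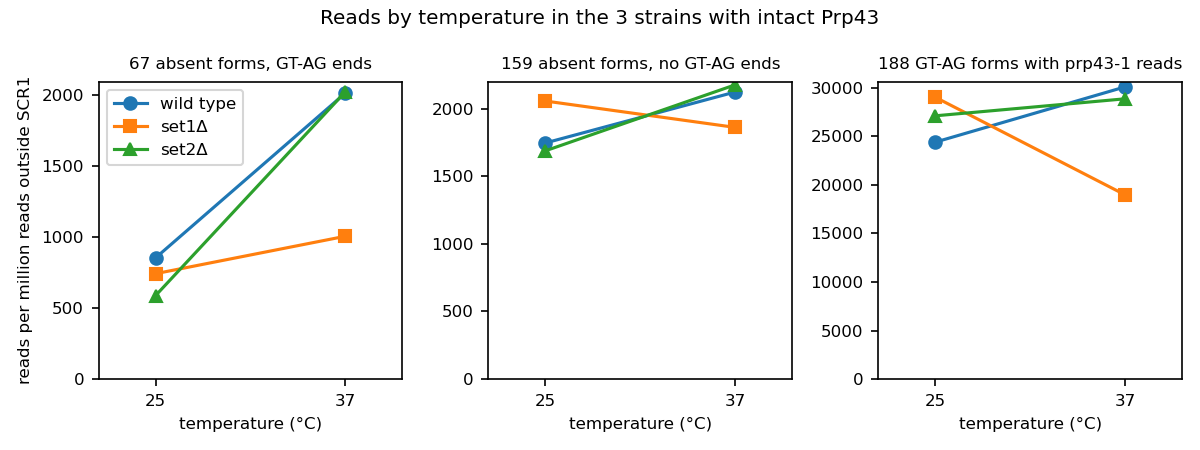
RPM (reads per 1000000 reads outside SCR1) at 25 °C and 37 °C in wild type, set1Δ and set2Δ (1 library per point, lines join a strain), for the GT-AG absent forms, the other absent forms and GT-AG forms with prp43-1 reads, each on its own axis from 0. The GT-AG absent forms are higher at 37 °C in all 3 strains, at 2013, 1005 and 2022 against 853.2, 741.7 and 587.8.

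Absent forms without intron letters were led by YNL208W, a gene of unknown function, whose 18-nt form had 0 and 4 reads in wild type at 25 °C and 37 °C, 3 and 5 in set1Δ and 0 and 1 in set2Δ. NPL3, which encodes an mRNA-binding protein that aids splicing, had a 24-nt form with 0 and 3, 2 and 0, and 1 and 4 reads, and a 54-nt form with 1 and 2, 2 and 3, and 2 and 0. Neither form of NPL3 separated the temperatures. In SHM2, a serine hydroxymethyltransferase gene, 7 of the 9 reads of a 12-nt form came from set2Δ at 25 °C, and in ASC1, which encodes a ribosome-bound protein, 7 of the 8 reads of an 81-nt form came from wild type at 25 °C. In all, 6 of the 7 reads of a 91-nt form in DBP2, an RNA helicase gene, came from set1Δ at 37 °C. Such forms rest mostly on 1 library. Forms of DDR48 (318 nt, 8 reads) and of ARO1, YEF3, LEU4 and SSA1 (7 reads each) completed the 25 most-read.

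Hosts mostly gave 1 absent form: 156 of 184 had 1, 21 had 2 and 7 had 3 or more. The 7 were YEF3, the fungal elongation factor 3 (6 forms), the stress gene DDR48 (5), the protein disulfide isomerase gene PDI1 (4), and NPL3, the Hsp70 gene SSA1, the cell wall gene SED1 and RPS0B (3 each). Among these only RPS0B had absent forms with a deposited p under 0.05. Forms of YEF3, DDR48 and SED1 lay among 69, 57 and 234 other listed forms, with 2125, 596 and 18603 reads in prp43-1, so those hosts were read there. In all, 130 hosts had prp43-1 reads on other forms and 54 (29.3%) had none on any listed form. Whether those genes were transcribed in prp43-1 was not tested.

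By gene class, read as a share of forms seen in at least 2 libraries with intact Prp43 beside 12% for all genes, intron-containing genes had 54 of 303 (17.8%, mirrored 15%). Cytoplasmic ribosomal protein genes had 32 of 237 (13.5%, mirrored 14.9%), of which 7 forms had 5 or more reads, such as RPL26B 279 nt (6 reads) and RPL9A 14 nt (6 reads). Genes with known regulated splicing had 8 of 42 (19%, mirrored 11.8%) and heat shock and chaperone genes 7 of 35 (20.0%, mirrored 7.89%), led by SSA1 48 nt with 0 and 5 reads in wild type, 0 and 0 in set1Δ and 0 and 2 in set2Δ. Translation elongation genes had 7 of 71 (9.86%, mirrored 11.7%). Shares were low for glycolysis and fermentation genes, 12 of 354 (3.39%, mirrored 4.36%), cell wall genes, 8 of 408 (1.96%, mirrored 3.37%), and snRNA and snoRNA genes, 1 of 103 (0.971%, mirrored 6.61%). Alpha-specific genes gave 1 of 7 forms, that of MF(ALPHA)2. The a-specific genes had 1 form seen in at least 2 of these libraries, which was not absent from prp43-1, and the helicase genes and the altered genes and markers had none that could meet the rule.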

How the data were processed

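RNA was sequenced in 12 libraries. Per the submitters' processing notes, CASAVA, STAR 2.4.0 and the build sacCer3 were used, with no role given; the counting rule and annotation are not given in the sources used here. The authors deposited 1 table with raw read counts per splice form and library, per the file headers, and 1 p-value per form whose test is not stated by the authors. Its 12 count columns were matched to samples by title. Coordinates count from 1 and span the skipped bases. They were checked against R64: read without a shift, GT-AG ends were on 729 of the 1112 forms whose deposited p-value was below 1, and with a shift of up to 5 nt on at most 26. Annotation is RefSeq R64, in which the hosts of 6101 of the 6195 forms matched.

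Either strand could carry GT-AG ends. Counts were tested in R 4.3.3 with edgeR 4.0.16, by its quasi-likelihood test (filterByExpr, TMM, strain and temperature as terms, Benjamini-Hochberg adjusted p under 0.05) on the whole table in the 6 libraries with intact Prp43. Standard errors are approximate, from the fold change and the test statistic. With 1 library per strain and temperature, p-values measure the residual spread between these libraries. The biological coefficient of variation was 36.1%. The filtered fit was tested on simulated data. DESeq2 1.42.0 was an alternative. Named forms are the 25 with the most reads, the 10 most-read with GT-AG ends or an annotated site, hosts with 3 or more, forms past the threshold, and list members with 5 or more reads, of which examples are given. The forms and gene lists were chosen with earlier results of these data known.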

Additional observations from a re-analysis of the deposited data

Results flagged for a closer look

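The number of absent forms seen moved in opposite directions with temperature. In wild type and set2Δ more were seen at 37 °C than at 25 °C, with log2 ratios of 0.73 and 0.39, and in set1Δ fewer, with -0.20. For the absent forms with GT-AG ends the log2 ratios were 1.16 and 1.00 in wild type and set2Δ and -0.25 in set1Δ. With 1 library per strain and temperature this difference was not tested. In set1Δ the reads outside SCR1 were 47187 at 25 °C and 53729 at 37 °C, and all forms seen outside SCR1 were 1521 and 1489, beside 1306 and 1782 in wild type and 1418 and 1510 in set2Δ. Their part in the result was not tested.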

How the results depend on the processing

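The rule sets the number of absent forms. It was 49 (20 with GT-AG ends) with 2 or more reads in at least 2 libraries, 63 (22) with reads in at least 3, and 400 (102) with 1 prp43-1 read allowed. It was 44 (10) without the 6 libraries with alpha-specific reads and 123 (23) with the wild-type and prp43-1 libraries alone, both chosen after seeing the data, and in each case 26 of the forms were among the 226. Leaving out 1 strain pair gave 153 to 209 forms, 41 to 61 with GT-AG ends, of which 113 to 131 were among the 226. GT-AG ends were on 38.1% of the absent forms with 5 or more reads. The temperature test called 1 absent form with no filter on low counts, but 0 unfiltered with DESeq2 or without the wild-type or set2Δ libraries, and 0 with the filter, which left at most 1 to test, while calls over all forms ranged from 0 with column totals alone to 36 with all 12 libraries, and from 2 to 29 when a strain was left out. The unfiltered fits with another scaling, tool or strain left out were added after seeing the data. The mean log2 temperature ratio of GT-AG absent forms was 0.63 to 1.49 under its alternatives and that of all absent forms 0.27 to 0.77, each within 1 SD of its main value, with no reversal. The labels carry no replicate numbers, and the strain term of the fit pairs the 2 temperatures of each strain. Depth limits at least the 76 forms with 2 reads, at 6.72 RPM, since 0 prp43-1 reads allow up to 8.96 RPM. Forms just above that limit are little better placed, since their own counting error is not in it.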
